A study of Mus musculus with 6 samples.

Results

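The immediate early genes described here were the rows of the deposited count table whose symbol was Fos, Fosb, Jun, Junb, Egr1, Atf3, Ier2, Dusp1, Nr4a1 or Zfp36. All 10 were found among the 22956 genes of the table, and all 10 were among the 16654 genes with enough counts to be tested. The samples were labelled as smooth muscle cells of the mouse aorta, from C57B6 animals 30 weeks old that had eaten a western diet, a fat-rich feed, for 20 weeks. The 3 knockout samples carried miR-21fl/fl, a miR-21 gene flanked by recombination sites, with mTmG, a reporter that changes colour in cells where Cre has acted, and Myh11ERT2, an inducible Cre under a smooth muscle promoter. The 3 wild-type (WT) samples carried mTmG and Myh11ERT2 with an unmodified miR-21 gene, so reporter and driver were common to all 6. The Myh11 promoter drives the Cre in smooth muscle, so other cells of the vessel are not its target. The labels do not say that Cre was induced, how far miR-21 was lost, or whether each sample was 1 animal. P-values therefore reflect how much these 6 libraries vary, and that variation may be technical. The protocol mentions flash freezing and Trizol, with no step of cell sorting.

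Immediate early genes are transcribed within minutes of a stimulus, from transcription factors that are already present in the cell and with no need for protein synthesis. Growth factors, stretch, injury and the handling of tissue all set them off, through MAP kinases, serum response factor and CREB. Their messages are short-lived, in part because their 3′ untranslated regions carry AU-rich elements that recruit decay proteins. In arteries they are known as markers of the early response of smooth muscle to injury and to enzymatic or mechanical handling.

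Library totals lay between 37787465 and 72277179 estimated counts in the knockout and between 37996254 and 154384307 in WT. The miR-21 gene itself was not analysed here. Vmp1, whose last exon contains it, had 77.1, 61.4 and 65.7 CPM (counts per 1e6 counts of the TMM-scaled library) in knockout 1, 2 and 3, against 87.0, 58.3 and 63.7 CPM in WT 1, 2 and 3, which checks nothing about loss of the microRNA. The 8 smooth muscle markers examined summed to 27820 to 36200 CPM in the knockout and 23180 to 34830 CPM in WT, with Acta2 and Myh11 the highest. The summed level of 8 fibroblast markers, mostly Lum and Dcn, was 1285 to 5344 CPM in the knockout and 2942 to 6568 CPM in WT. Macrophage markers summed to 6.39 to 29.0 CPM in the knockout and 7.75 to 29.5 CPM in WT, with Adgre1 listed at 0 in 1 library. Lymphocyte markers summed to at most 0.483 CPM in the knockout and 1.24 CPM in WT, and the neutrophil marker S100a8 was at 0 in all 6 libraries. Endothelial markers, mostly Pecam1 and Erg, summed to 101.2 to 114.4 CPM in the knockout and 103 to 117 CPM in WT. Of these, Cdh5 was at 0.0556 to 0.536 CPM in the knockout and 0.0491 to 0.580 CPM in WT, and Tie1 and Tek were at 0 in WT 2. Striated muscle markers summed to 19.2 to 44.7 CPM in the knockout and 26.5 to 35.5 CPM in WT, and Schwann cell markers to 2.53 to 10 CPM in the knockout and 5.33 to 7.75 CPM in WT. The adipocyte genes Fabp4 and Ucp1 summed to 37.4 to 53.2 CPM in the knockout and 37.5 to 50.1 CPM in WT. Ucp1 was at most 0.0736 CPM, so that sum was nearly all Fabp4. The adipocyte markers Adipoq, Plin1, Cidec and Lep were not in the table. In samples of this kind, fewer cells of a type and less RNA per cell cannot be told apart.

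The sequences that bear on these genes are the microRNA whose gene is floxed in the knockout, the 1 place where it matches a member, the decay elements and the start-site regions. The mature strand of miR-21 (RefSeq, GRCm38.p6, chromosome 11, 86584120 to 86584141, minus strand) is shown with its seed, bases 2 to 8, in capitals.
miR-21a-5p: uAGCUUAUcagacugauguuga
The reverse complement of that seed, ATAAGCT, was searched in the 3′ untranslated region of 1 transcript per gene. It was present in 963 of 13110 protein-coding genes tested, or 7.35%, and in 1 of the 10 immediate early genes. This was Nr4a1, which holds it from base 286 of a region of 543 bases (GRCm38, chromosome 15, 101274538 to 101274544, plus strand). The match is in capitals.
Nr4a1 site: tctgttgtaaATAAGCTgacgctactg

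The AU-rich heptamer TATTTAT, a form of the element bound by the Zfp36 protein, was present in 6 of the 10 genes, against 28.9% of all 13110. Among the 6316 genes whose 3′ untranslated region was as long as those of the members, 485 to 2145 bases, the share was 27.5%. Zfp36 and Dusp1 each held 3 copies, Fos 2, and Fosb, Jun and Atf3 1 each. At least 2 copies were held by 3 members and by 10.1% of all genes. The 3 copies of Zfp36 lie within a stretch of its own message (GRCm38, chromosome 7, minus strand, first bases at 575, 590 and 615 of 774), so the message for this decay factor carries the letters that its protein is known to bind. They are shown with the 2 copies of Fos (chromosome 12, plus strand, first bases at 656 and 680 of 815), with the heptamer in capitals.
Zfp36 at 575: gtgggcccttTATTTATgacgacttta
Zfp36 at 590: atgacgacttTATTTATtgtattaaga
Zfp36 at 615: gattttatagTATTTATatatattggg
Fos at 656: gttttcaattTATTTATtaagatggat
Fos at 680: gattctcagaTATTTATatttttattt
A motif match is a description of the letters and does not show binding or decay.

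RefSeq start-site regions (GRCm38.p6) were matched for 8 of the 10 genes, all except Egr1 and Ier2. In the 250 bases before the start, TGACG on either strand, the core of the element bound by CREB and its relatives, was present in 6 of 8 members (Fos, Fosb, Junb, Atf3, Dusp1 and Nr4a1), against 26.9% of 10854 tested genes. The full palindrome TGACGTCA, which contains TGACG on each strand, was in Dusp1 alone of the members, against 2.75% of genes. A TATA box (TATAAA, same strand only) was in Fos alone, against 3.98%, and the CArG box of serum response factor was in Zfp36 alone, against 1.18%. The AP-1 element TGANTCA was in 0 of 8 members, against 4.15%. GGGCGG and CCAAT were in 7 and 2 members, against 58.7% and 36.5% of genes. Elements farther from the start were not searched. The last 150 bases before the start, less any that lie in annotated exons, are shown for 5 of the 6 genes with TGACG, with TGACG or its complement and, in Fos, TATAAA in capitals. The sixth, Atf3, holds it 7 bases before the RefSeq start used here. That start lies inside the counted Atf3 gene (chromosome 1, 191170296 to 191218040, minus strand), as do bases 191183341 to 191183483 before it.
Fos, chr12:85473740-85473889, plus strand: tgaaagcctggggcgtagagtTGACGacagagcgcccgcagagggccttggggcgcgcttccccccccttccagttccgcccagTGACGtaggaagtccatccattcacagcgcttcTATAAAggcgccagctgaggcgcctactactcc
Fosb, chr7:19310052-19310195, minus strand: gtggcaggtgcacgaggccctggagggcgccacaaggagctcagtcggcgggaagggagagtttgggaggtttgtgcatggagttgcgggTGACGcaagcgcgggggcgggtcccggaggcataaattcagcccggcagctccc
Junb, chr8:84978749-84978898, minus strand: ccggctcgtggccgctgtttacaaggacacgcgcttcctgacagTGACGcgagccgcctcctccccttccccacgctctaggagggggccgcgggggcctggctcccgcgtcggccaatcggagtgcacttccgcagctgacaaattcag
Dusp1, chr17:26508520-26508622, minus strand: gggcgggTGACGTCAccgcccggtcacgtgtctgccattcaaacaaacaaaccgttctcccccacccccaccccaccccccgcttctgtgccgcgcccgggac
Nr4a1, chr15:101266696-101266845, plus strand: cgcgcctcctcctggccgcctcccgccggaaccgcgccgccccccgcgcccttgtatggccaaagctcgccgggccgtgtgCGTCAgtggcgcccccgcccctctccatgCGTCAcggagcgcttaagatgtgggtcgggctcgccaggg
Most members were also compact genes, but Atf3 spanned 47744 bases. The median span of the 10 members in the table was 3853 bases, against 24565 bases over the 13110 protein-coding genes. The chosen transcripts had a median of 3 exons, against 9. Jun, Junb and Ier2 had 1 exon, and Nr4a1 had 8.

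Messages of these genes were abundant in every library. Together the 10 genes took 1.59%, 2.37% and 1.88% of all estimated counts in knockout 1, 2 and 3, against 1.41%, 1.59% and 1.94% in WT 1, 2 and 3. The mean share was 1.95 ± 0.394% in the knockout and 1.65 ± 0.270% in WT (SD, n = 3 each). Knockout 1 and WT 2 had the same share to 3 digits, and WT 3 lay above knockout 1 and 3. On the scale of CPM per kilobase of transcript, Fos was the highest member, with a mean level of 2595 ± 686 in the knockout and 2068 ± 319 in WT (SD, n = 3 each). Its level ranked between 4 and 15 of 13271 protein-coding genes in the 6 libraries. Dusp1 followed at 1031 ± 189 CPM per kilobase in the knockout and 883 ± 106 in WT, and Junb at 836 ± 59.2 in the knockout and 793 ± 142 in WT. In order of the knockout mean, Egr1, Nr4a1 and Jun lay next, with means of 749, 709 and 631 CPM per kilobase in the knockout and 591, 550 and 605 in WT. From Dusp1 to Jun, the ranges of mean ± SD of neighbours in this order overlapped in the knockout and in WT. Ier2, Zfp36 and Atf3 had means of 482, 401 and 401 in the knockout and 472, 371 and 276 in WT, and their ranges of mean ± SD overlapped as well from each to the next. Fosb was the lowest member, at 192 ± 45.8 CPM per kilobase in the knockout and 139 ± 46.2 in WT, and ranked between 203 and 525.

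The 6 libraries split into the same 3 high and 3 low ones for all 10 genes, and that split did not follow genotype, while the order among the high libraries differed between genes. Knockout 2, knockout 3 and WT 3 were the 3 highest libraries for all 10 genes, while WT 1, WT 2 and knockout 1 were the 3 lowest. This partition was seen in 5.39% of the 16654 genes tested. Knockout 2 was the highest library for 6 members (Fos, Fosb, Egr1, Atf3, Dusp1 and Nr4a1), WT 3 for Jun, Junb and Ier2, and knockout 3 for Zfp36. WT 1 was the lowest for 9 members and WT 2 for Jun. The mean of the 10 genes, as log2 CPM relative to each gene's own mean, was -0.13, 0.38 and 0.13 in knockout 1, 2 and 3, against -0.36, -0.19 and 0.17 in WT 1, 2 and 3. The 3 libraries with the highest levels were also the 3 with the largest totals, at 43708404, 72277179 and 154384307 counts, against 37787465 to 39938913 in the others. The part of sequencing depth in this split was not tested. Red blood cell genes (Hba-a1, Hba-a2, Hbb-bs, Hbb-bt and Alas2) summed to 192.5, 56.3 and 25.7 CPM in knockout 1, 2 and 3, against 368, 52.3 and 14.3 CPM in WT 1, 2 and 3. They were highest in WT 1 and knockout 1, and their part in the split was not tested either.

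**Figure D1:**
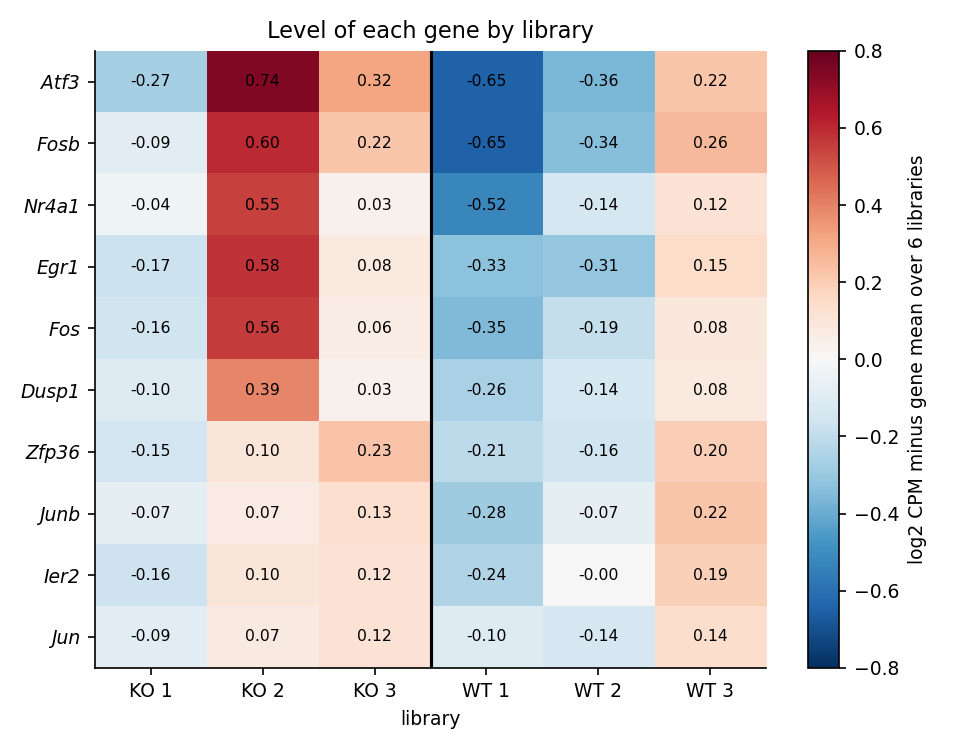
Level of each immediate early gene in each library, as log2 CPM minus the mean of that gene over the 6 libraries; columns are knockout (KO) 1 to 3 and WT 1 to 3, rows run from the most to the least variable genes. KO 2, KO 3 and WT 3 are above each gene's mean for all 10 genes, and the spread is widest for Atf3 (-0.65 in WT 1 to 0.74 in KO 2).

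The Fos and Jun families form the AP-1 transcription factor as pairs of leucine zipper proteins, with Fos proteins bound to a Jun partner. Fos had 4315, 7094 and 5004 CPM in knockout 1, 2 and 3, against 3772, 4215 and 5094 CPM in WT 1, 2 and 3. Knockout 2 stood well above the rest, and WT 3 lay above knockout 1 and 3, so the groups overlapped. The log2 fold change of Fos, knockout over WT, was 0.33 ± 0.21 (SE), with a 95% interval of -0.18 to 0.83. Fosb, a close relative of Fos, had 566, 910 and 703 CPM in knockout 1, 2 and 3, against 383.5, 475 and 722 CPM in WT 1, 2 and 3. Here too knockout 2 was highest and WT 1 lowest, with WT 3 between knockout 2 and knockout 3. Its log2 fold change was 0.46 ± 0.27 (SE; 95% interval -0.19 to 1.11).

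Over the 6 libraries the Jun partners varied less than the Fos genes, but within WT this was not so for Junb against Fos. Jun had 1849, 2062 and 2129 CPM in knockout 1, 2 and 3, against 1831, 1789 and 2165 CPM in WT 1, 2 and 3. WT 3 was the highest library, and the highest was 1.21 times the lowest, against 1.88 times for Fos and 2.37 times for Fosb. Junb, which often restrains Jun at shared targets, had 1395, 1534 and 1606 CPM in knockout 1, 2 and 3, against 1202, 1395 and 1709 CPM in WT 1, 2 and 3. The knockout libraries lay inside the range of the WT libraries. Its highest library was 1.42 times its lowest. Within WT alone that ratio was 1.42 for Junb and 1.21 for Jun, against 1.35 for Fos and 1.88 for Fosb. The log2 fold changes were 0.06 ± 0.12 for Jun and 0.08 ± 0.14 for Junb (SE). Both genes overlap an annotated gene on the other strand, the antisense RNA Junos for Jun and Prdx2 for Junb, and the sources used here do not say whether strand was counted.

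Of the other transcription factors, Egr1 is a zinc finger protein that binds GC-rich promoters, Nr4a1 is an orphan nuclear receptor induced by growth factors, and Atf3 is a stress-induced leucine zipper protein that mostly represses. Egr1 had 2605, 4374 and 3100 CPM in knockout 1, 2 and 3, against 2339, 2368 and 3243 CPM in WT 1, 2 and 3. As with Fos, knockout 2 stood alone at the top and WT 3 came next. Nr4a1, the member with the miR-21 seed match printed above, had 1529, 2295 and 1604 CPM in knockout 1, 2 and 3, against 1092, 1423 and 1700 CPM in WT 1, 2 and 3. WT 3 lay above knockout 1 and 3, so the groups overlapped for this gene as well. Atf3 had the widest range, with 530, 1064 and 793 CPM in knockout 1, 2 and 3, against 407, 495 and 743 CPM in WT 1, 2 and 3. A knockout library was above a WT library in 8 of the 9 pairs for Atf3, the most of any member, and in 7 of 9 for Egr1 and Nr4a1. The log2 fold changes were 0.34 ± 0.23 for Egr1, 0.36 ± 0.22 for Nr4a1 and 0.54 ± 0.31 for Atf3 (SE). The 95% interval of Nr4a1 was -0.15 to 0.88, and the 9 members with no seed match had log2 fold changes from 0.03 to 0.54. Whether the match bears on Nr4a1 was not tested.

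Dusp1 and Zfp36 act as brakes on the response. Dusp1 is a phosphatase that inactivates MAP kinases, and Zfp36 (tristetraprolin) binds AU-rich messages and speeds their decay. Dusp1 had 1752, 2472 and 1928 CPM in knockout 1, 2 and 3, against 1576, 1707 and 1990 CPM in WT 1, 2 and 3, with knockout 2 highest and WT 3 second. Zfp36 had 961.5, 1142 and 1254 CPM in knockout 1, 2 and 3, against 923, 959 and 1224 CPM in WT 1, 2 and 3. Its 3 high and 3 low libraries were those of the other members, with knockout 3 at the top. Their log2 fold changes were 0.22 ± 0.16 for Dusp1 and 0.11 ± 0.15 for Zfp36 (SE). Zfp36 overlaps the antisense RNA Gm44710 on the other strand, so part of its counts is uncertain in the same way as for Jun. The annotated Dusp1 model overlaps Ergic1 on the other strand, but runs to base 26562128 of chromosome 17, past the deposited end of 26508520. Whether this overlap touches the counted Dusp1 row was not tested. Ier2, a nuclear protein of the early growth response, had 644, 772 and 783 CPM in knockout 1, 2 and 3, against 610, 720 and 824 CPM in WT 1, 2 and 3. It had the smallest log2 fold change of the group, 0.03 ± 0.14 (SE), and its knockout libraries lay inside the WT range.

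**Figure D2:**
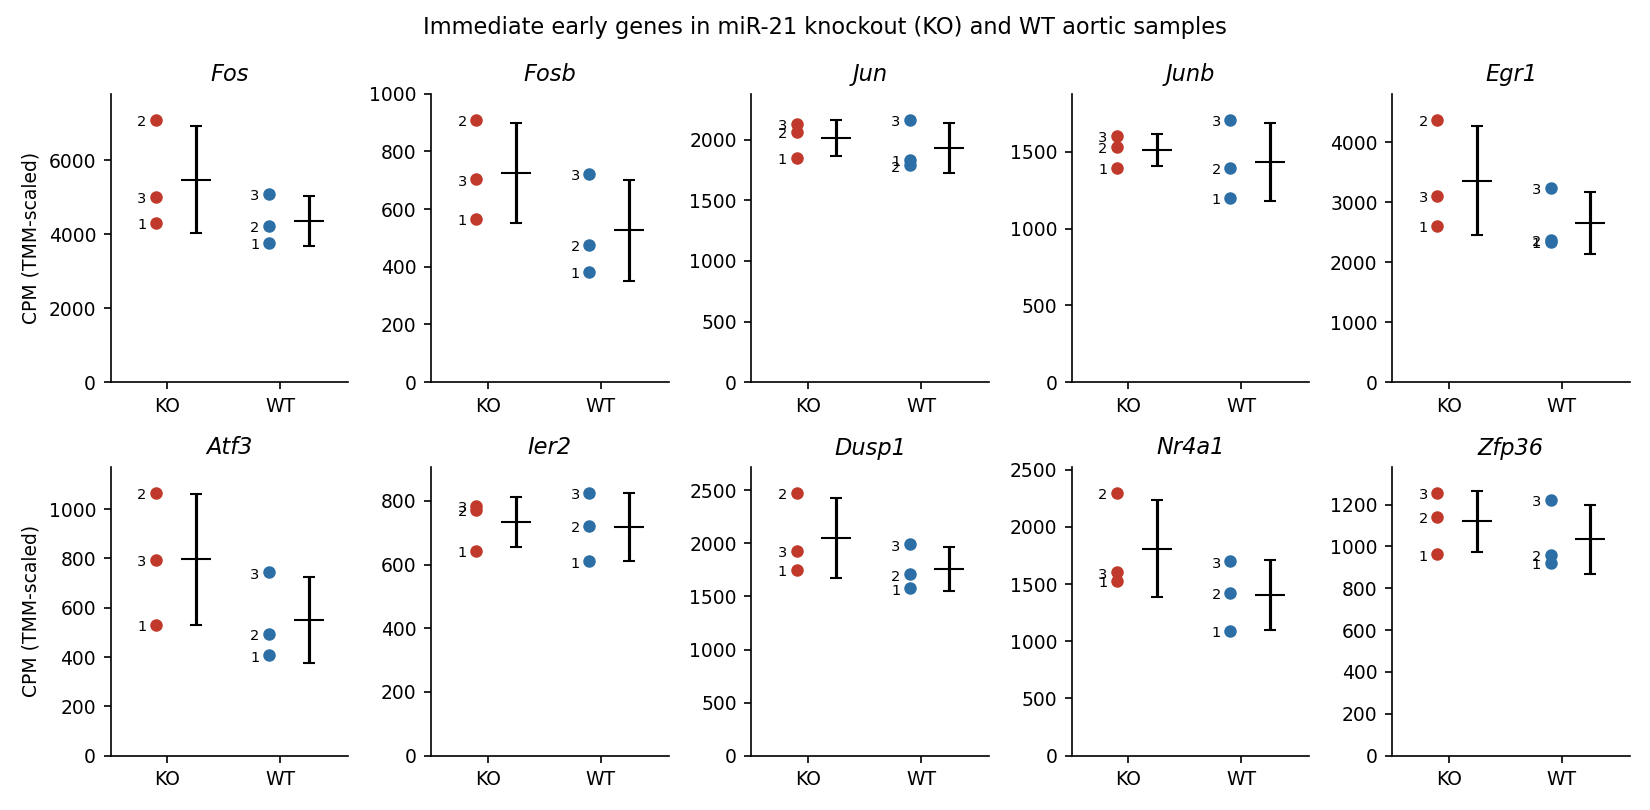
TMM-scaled CPM of each immediate early gene in the 3 knockout (KO, red) and 3 WT (blue) libraries, on linear axes from 0; numbers beside the points are replicate numbers, and bars show the mean and SD (n = 3 each). For Fos, KO 2 at 7094 CPM stands apart from the other 5 libraries at 3772 to 5094 CPM, and the groups overlap for all 10 genes.

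In the comparison of knockout with WT, 0 of the 10 genes passed edgeR's quasi-likelihood test at a Benjamini-Hochberg adjusted p under 0.05, as was so for 0 of the 16654 genes (0%), of which 658 were higher and 335 lower at an unadjusted p under 0.05. Adjusted p of the members ran from 0.859 to 0.980, and unadjusted p from 0.133 for Atf3 to 0.835 for Ier2. At an unadjusted p under 0.05 the count of members was again 0, against 3.95% of all genes on the higher side. DESeq2's Wald test called 0 members and 0.438% of all genes, and limma-voom called 0 of either. The knockout and WT libraries did not overlap, with the knockout higher, for 0 members and for 6.48% of all genes. All 10 log2 fold changes were above 0, as were 49.4% of those over all genes, with a median of 0.27 for the members and -0.0022 over all genes. Among the 209 genes at least as abundant as the least abundant member, 61.7% were above 0 and the median was 0.05. Since the members share their high and low libraries, these 10 signs are not 10 separate observations. All 10 intervals included 0, and for all 10 the ratio of the highest to the lowest knockout library was larger than the ratio of the group means. For Fos these ratios were 1.64 and 1.25, and for Atf3 2.01 and 1.45.

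The size of the difference depended on single libraries. Without knockout 2 the median log2 fold change of the members was 0.096, and that of Fos was 0.095, of Egr1 0.11, of Dusp1 0.065 and of Nr4a1 0.16. Without WT 1 the median was 0.18, and Junb and Ier2 turned to -0.04 and -0.08. Ier2 also turned to -0.01 without knockout 2 and to -0.02 without knockout 3. Without WT 3, the highest WT library, the median was 0.39, and Fosb and Atf3 had log2 fold changes of 0.76 and 0.82 with unadjusted edgeR p of 0.0166 and 0.039. Without knockout 1 it was 0.39, with an unadjusted edgeR p of 0.0286 for Atf3. None of these passed after adjustment over all genes, where the adjusted p of Atf3 was at least 0.488.

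**Figure D3:**
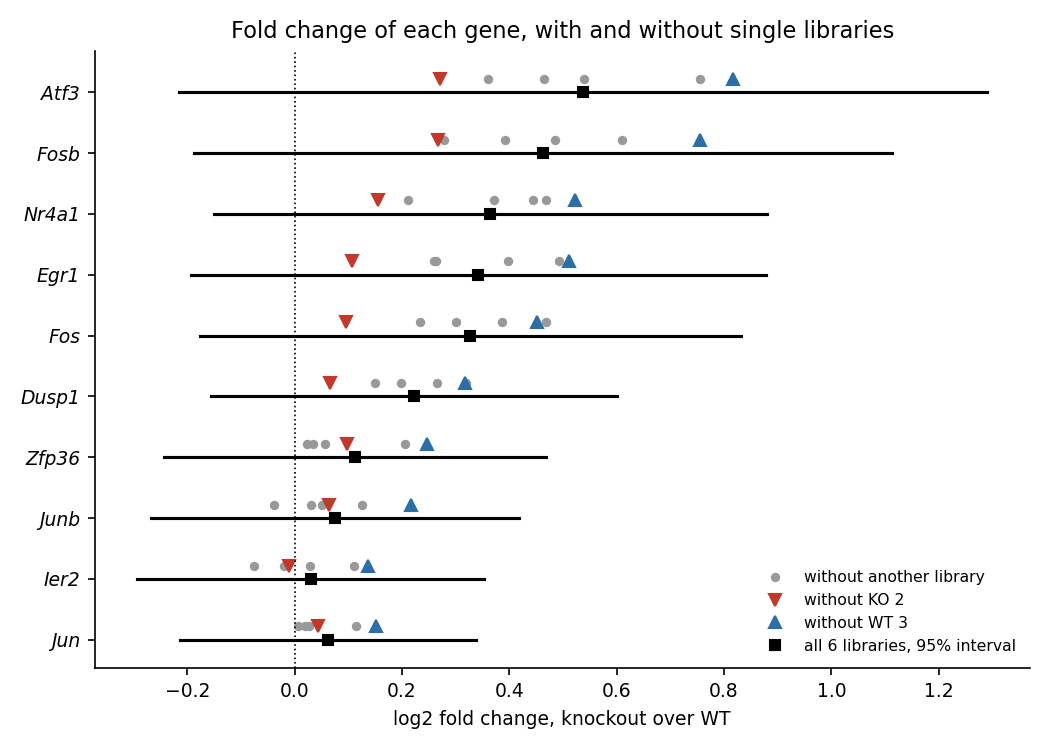
Log2 fold change, knockout over WT, of each immediate early gene: black squares and lines are the edgeR estimate and its 95% interval with all 6 libraries, and small symbols are estimates with 1 library left out. All 10 intervals cross 0, and for Fos the value is 0.095 without KO 2 (red triangle) and 0.33 with all libraries (black square).

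In each list of other immediate early genes, 42.9% to 61.1% had these 3 highest libraries, against 5.39% of all genes tested. These lists were chosen with earlier results of these data known. Of 17 other immediate early transcription factors, 13 had a log2 fold change above 0 and 0 passed, with a median of 0.17. Knockout 2, knockout 3 and WT 3 were the 3 highest libraries for 8 of these 17, among them Klf2 and Maff. Fosl2, another Fos relative, had 105, 95.1 and 110 CPM in knockout 1, 2 and 3, against 105, 73.5 and 75.0 CPM in WT 1, 2 and 3, and did not share that split. Klf2, a flow-responsive factor, had 440, 594.5 and 527 CPM in knockout 1, 2 and 3, against 372, 420 and 520 CPM in WT 1, 2 and 3. The small Maf protein gene Maff had 44.3, 47.5 and 49.7 CPM in the knockout libraries, against 37.4, 33.6 and 50.5 CPM in the WT libraries.

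Of 18 other feedback inhibitors, 11 were above 0 and 0 passed, with a median of 0.07, and 11 had the same 3 highest libraries. An unadjusted edgeR p under 0.05 was reached by 3 of them, all with the knockout higher, against 3.95% of all genes on the higher side. Zfp36l1, a relative of Zfp36, had 182.5, 202 and 201 CPM in knockout 1, 2 and 3, against 150, 157 and 175 CPM in WT 1, 2 and 3, so that the groups did not overlap. The log2 fold change of Zfp36l1 was 0.28 ± 0.08 (SE), and edgeR gave it an adjusted p of 0.780. Btg2, an antiproliferative factor, had 766, 811 and 822 CPM in the knockout libraries, against 644.5, 738 and 607 CPM in the WT libraries, also without overlap. In all, the groups did not overlap for 2 genes of this list with the knockout higher and for 1 with the knockout lower, against 6.48% and 5.6% of all genes. Dusp6, a phosphatase that acts on ERK, had 89.0, 94.6 and 105 CPM in the knockout libraries, against 64.7, 75.2 and 90.8 CPM in the WT libraries. Of 14 secreted factors, enzymes and cytoskeletal regulators, 9 were above 0 and 0 passed, with a median of 0.16, and 6 had the same 3 highest libraries. As a whole this list did not follow the members, with a mean relative log2 CPM of 0.19, -0.07 and 0.05 in knockout 1, 2 and 3, against 0.15, -0.53 and 0.21 in WT 1, 2 and 3. Sik1, a salt-inducible kinase, had 52.0, 48.2 and 49.1 CPM in the knockout libraries, against 44.3, 39.6 and 45.9 CPM in the WT libraries. It was the 1 gene of this list with an unadjusted edgeR p under 0.05 (0.0293), against 3.95% of all genes on the higher side. Rhob, a small GTPase gene, had a log2 fold change of 0.23 ± 0.11 (SE).

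Heat shock genes, which protein damage and tissue handling raise, were above 0 in 13 of 14 cases, with 0 passing and a median of 0.09. Their summed level was 4382, 5503 and 5129 CPM in knockout 1, 2 and 3, against 4442, 4284 and 5008 CPM in WT 1, 2 and 3, so the 3 highest libraries were again knockout 2, knockout 3 and WT 3. By gene this was so for 6 of 14, among them the cognate chaperone gene Hspa8 but not Dnajb4 or Hsph1. Dnajb4, a co-chaperone gene, had 261, 345 and 321 CPM in knockout 1, 2 and 3, against 275, 217 and 214 CPM in WT 1, 2 and 3, with an unadjusted edgeR p of 0.0269 and an adjusted p of 0.807. Hsph1 and Hspa8 had log2 fold changes of 0.31 ± 0.16 and 0.21 ± 0.13 (SE).

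Of the kinases and factors that act upstream, 10% had these 3 highest libraries, against 5.39% of all genes tested. Their summed level was 1043, 1072 and 1063 CPM in knockout 1, 2 and 3, against 1033, 1046 and 1050 CPM in WT 1, 2 and 3. The 3 highest sums were again those of knockout 2, knockout 3 and WT 3, within a narrow range. The mean relative log2 CPM of the list did not divide that way, at 0.065 in knockout 1 and -0.06 in WT 3. Of 20 genes tested, 13 were above 0, the median was 0.07, 0 passed, and 2 had the same 3 highest libraries. Creb1, which encodes CREB, had 74.6, 81.8 and 80.4 CPM in the knockout libraries, against 73.7, 71.7 and 68.2 CPM in the WT libraries. Crem, a related factor that includes inhibitory forms, had 18.8, 16.0 and 19.5 CPM in the knockout libraries, against 22.6, 20.6 and 22.5 CPM in the WT libraries. The groups did not overlap for either gene, and the adjusted edgeR p was 0.831 for Creb1 and 0.803 for Crem. These were the only such genes of the 20, 1 with the knockout higher and 1 with it lower. Over all genes the shares were 6.48% and 5.6%. The kinase gene Rps6ka1 was near the limit of detection, at 0.292 to 0.509 CPM in the knockout and 0.105 to 0.368 CPM in WT.

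**Figure D4:**
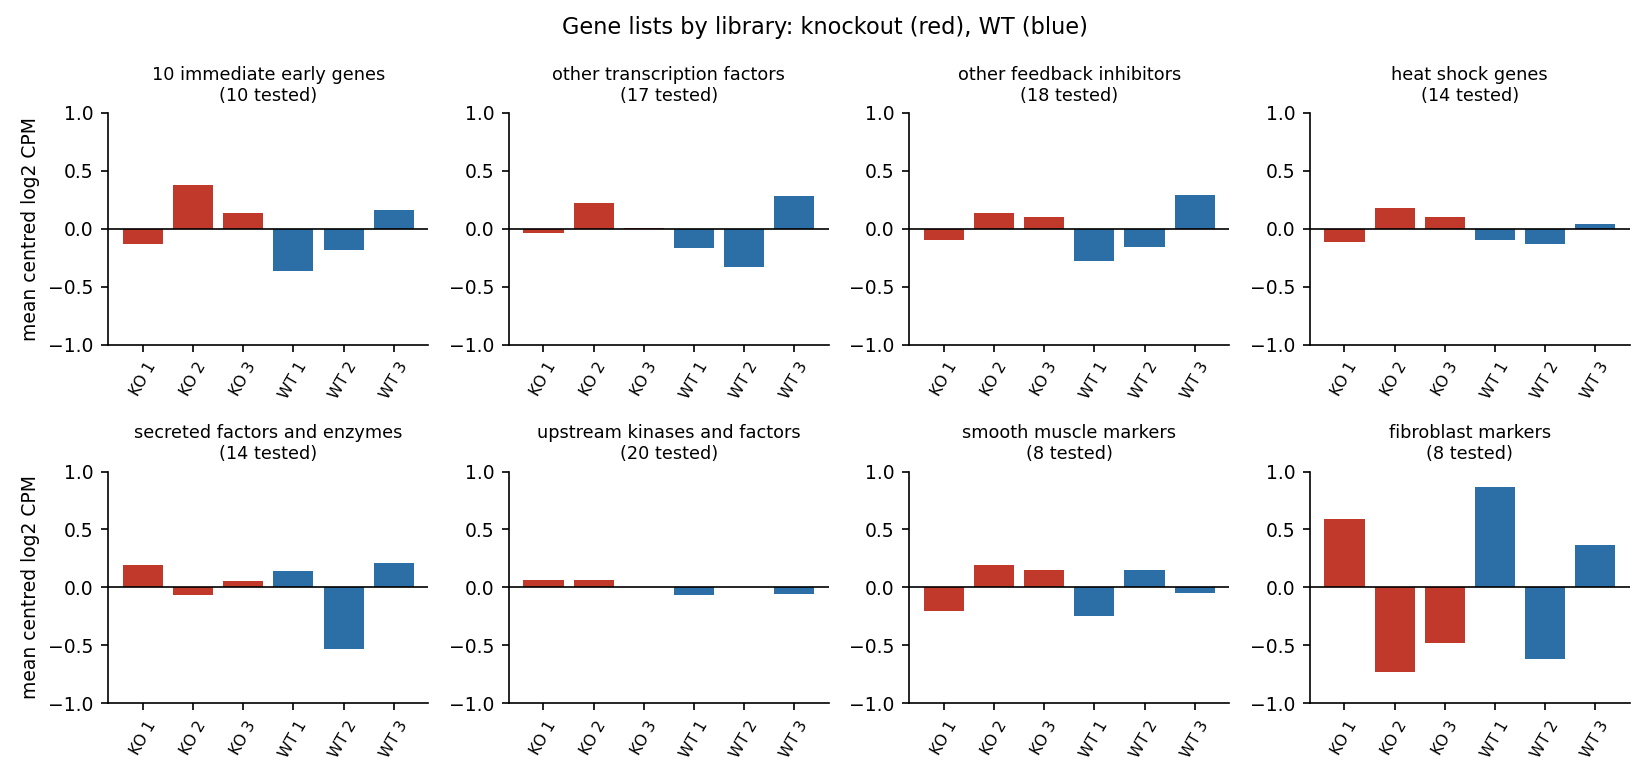
Mean log2 CPM of each gene list, relative to each gene's mean over the 6 libraries, in knockout libraries (KO 1 to 3, red) and WT libraries (WT 1 to 3, blue). The 10 immediate early genes run from -0.36 in WT 1 to 0.38 in KO 2, the upstream kinases and factors stay between -0.07 and 0.07, and the fibroblast markers are highest in WT 1 (0.87) and KO 1 (0.59).

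Few cell type markers had the 3 highest libraries of the immediate early genes, as was so for few genes of any kind (5.39%). Knockout 2, knockout 3 and WT 3 were the 3 highest libraries for 0 of 8 smooth muscle, 0 of 8 fibroblast, 0 of 8 endothelial and 0 of 6 tested macrophage markers, and for 1 of 6 striated muscle markers, the creatine kinase gene Ckm, which was named after its values were seen. The same held for 0 of 5 red blood cell, 0 of 2 tested Schwann cell and 0 of 1 tested adipocyte markers. Fibroblast markers were low in knockout 2, knockout 3 and WT 2 and high in the other 3 libraries, with mean relative log2 CPM of 0.59, -0.73 and -0.48 in knockout 1, 2 and 3, against 0.87, -0.62 and 0.36 in WT 1, 2 and 3. Smooth muscle markers had means of -0.20, 0.19 and 0.15 in knockout 1, 2 and 3, against -0.25, 0.15 and -0.05 in WT 1, 2 and 3, so that WT 2 was among the high libraries there and among the low ones for the immediate early genes.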

How the data were processed

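The authors' deposited table holds unnormalized estimated counts for each gene in 6 libraries, built with a TruSeq kit, per the labels' protocols. The submitters' processing notes name mm10, STAR 2.6 and DESeq2 without saying what each was for. How reads were assigned to genes, and whether strand was used, is not given in the sources used here. Columns were matched to samples by the code in their names.

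Expected counts were rounded to whole numbers, filtered with filterByExpr, scaled by TMM and tested over all 16654 genes by edgeR (version 4.0.16 under R 4.3.3), using its robust quasi-likelihood test on both sides and a Benjamini-Hochberg threshold of 0.05. The fit was tested on simulated data. Alternatives were DESeq2 1.42.0, limma-voom (limma 3.58.1), 2 other scalings, 2 other filters, a replicate block and leaving out each library. Libraries of 1 group differed by more than counting error, with a chi-square per gene of 27.6 to 98.6 on average.

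Transcripts, lengths and 3′ untranslated regions were those of GENCODE M21 (GRCm38, the assembly of mm10), 1 transcript per gene by APPRIS tag. Of the tested genes, 15469 matched by position after lowering the deposited end by 1 base, 1140 by symbol, and 45 did not match. Promoter and microRNA sequences came from RefSeq. The members and lists were chosen with earlier results of these data known. The rule for named genes took the members, the 3 smallest p in each other list, any list gene past an unadjusted p of 0.05 where there were 5 or fewer, and the 10 genes most like the members. Of the genes so chosen, 1 is not reported here.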

Additional observations from a re-analysis of the deposited data

How the results depend on the processing

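The count of immediate early genes called was 0 with all libraries and in all 13 alternatives. Over all genes the count called was 73 in DESeq2 (61 higher, 12 lower), 1 with the replicate block and 0 to 1 when single libraries were left out (1 without knockout 1), against 0 with all libraries, and 0 in the other scalings, filters and limma-voom. The cause of these differences was not tested. The median log2 fold change of the members was above 0 in all alternatives, between 0.25 and 0.28 in those that kept all libraries (0.26 with the replicate block) and between 0.096 and 0.39 when a library was left out. Junb ranged from -0.038 to 0.217 and Ier2 from -0.075 to 0.137 when a library was left out. Members below 0 were Junb without WT 1 (-0.038) and Ier2 without WT 1 (-0.075), without knockout 2 (-0.010) and without knockout 3 (-0.020). Whether replicate numbers pair the samples is not given by the labels. Deviations from the group means correlated at 0.262, 0.288 and -0.0353 across genes for numbers 1, 2 and 3. For different numbers the values ran from -0.321 to 0.102, the latter for knockout 3 with WT 2. Equal numbers thus gave the highest values for 1 and 2, but not for 3. Whether the samples are paired was not settled, and the block is a check of a shared number alone. The median SE over all genes was 0.136, and the SEs of the members, 0.116 to 0.313, limit what 3 libraries a group can show.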

Other observations

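The genes whose log2 CPM followed the mean of the 10 immediate early genes most closely over the 6 libraries were sought among 9859 other genes with a mean log2 CPM of at least 3. Klf2 came first (Pearson r = 0.997), followed by Ift122, Aebp2, Gm8355, Qrich1, Ap3d1, Cnnm2, Ifrd1, Rpl9-ps4 and Ppp3cb, with r of 0.980 to 0.991. The value is a description of 6 points picked as the best of many genes, and it carries no test. Klf2 is itself an immediate early transcription factor. Ifrd1, a regulator of differentiation first found as a growth-factor-induced gene, had 146, 265 and 178.5 CPM in knockout 1, 2 and 3, against 121.5, 137.5 and 213.5 CPM in WT 1, 2 and 3. Its highest library was 2.18 times its lowest. Among the members this ratio ran from 1.21 for Jun to 2.62 for Atf3. Gm8355 and Rpl9-ps4 are a predicted gene and a pseudogene, for which shared reads make estimated counts uncertain. The remaining 6 had a narrower range than Ifrd1, with the highest library 1.11 times the lowest for Aebp2 and Qrich1 and 1.36 times for Ift122. All 10 were highest in knockout 2 and lowest in WT 1, and the knockout and WT libraries overlapped for each.

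Leaving each member in turn out of the mean, Atf3 (r = 0.991) and Fosb (0.985) followed the other 9 most closely, and Ier2 (0.815), Junb (0.816), Zfp36 (0.820) and Jun (0.821) least. The spread over the 6 libraries followed the same division, with an SD of log2 CPM of 0.51 for Atf3 and 0.45 for Fosb, against 0.12 for Jun, 0.17 for Ier2, 0.18 for Junb and 0.20 for Zfp36. Within WT the division was less clear. There the highest library was 1.26 times the lowest for Dusp1 and 1.35 times for Fos, against 1.33 for Zfp36, 1.35 for Ier2 and 1.42 for Junb. Jun had 1.21 and Atf3 1.83. How far the division rests on knockout 2 was not tested. The mean of the other 9 was not scaled by spread, so widely varying genes weigh most in r. These are descriptions over 6 libraries that share their scaling, and whether the members form separate sets was not tested.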
